A study of Mus musculus with 4 samples.

Results

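Foxp1, Meis2, Ebf1, Zfp503, Rarb, Rxrg, Rara and Rxra are transcription factors that are either known from developing striatal projection neurons or are receptors for retinoids. These 8 genes were taken by symbol from the 19465 genes of the counts table, and each symbol had its own row. Counts came from coronal mouse brain sections trimmed to show the striatum, fixed in formalin, embedded in paraffin and read with Visium CytAssist, in which gene probes are captured on a grid of barcoded spots. The labels name 4 untreated mice, of which 2 are Celsr3 heterozygotes and 2 are wild-type; Celsr3 is a cadherin gene of neurons. The labels give no age, strain or kind of Celsr3 allele. The spots fall into 4 barcode sets, none of which the labels place with a mouse or a genotype. Genotypes were therefore not compared, values are given for each set, and no spread between animals stands behind any of them.

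The striatum is built mainly of GABAergic projection neurons that receive dopamine. Retinoic acid acts through retinoic acid receptors (RARs, here Rara and Rarb), which bind DNA as pairs with retinoid X receptors (RXRs, here Rxra and Rxrg). These pairs bind direct repeats of a short core sequence, and Rarb is a textbook target that retinoic acid induces through such a repeat in its own promoter. Foxp1 (a forkhead factor), Meis2 (a TALE homeodomain factor), Ebf1 (a helix-loop-helix factor tied to neurons of the direct pathway) and Zfp503 (a zinc finger factor also called Nolz1) are known from the ganglionic eminences, where striatal neurons arise.

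All 8 genes had promoter windows in the RefSeq table of GRCm38.p6, 16 windows in all, each running from 250 bases before to 50 bases after a transcript start. The windows were searched on both strands for retinoid receptor repeats spelled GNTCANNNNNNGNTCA, GNTCANNNGNTCA and GNTCANNGNTCA, where N is any base. A single window of the 16 held the first of these, and 0 held either of the other spellings. It belongs to Rarb and lies on the minus strand of chromosome 14, at chr14:16575427-16575726. It is shown because it carries the only match among the 8 genes, with the matching bases in capitals, 52 to 37 bases upstream of the start.

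Rarb: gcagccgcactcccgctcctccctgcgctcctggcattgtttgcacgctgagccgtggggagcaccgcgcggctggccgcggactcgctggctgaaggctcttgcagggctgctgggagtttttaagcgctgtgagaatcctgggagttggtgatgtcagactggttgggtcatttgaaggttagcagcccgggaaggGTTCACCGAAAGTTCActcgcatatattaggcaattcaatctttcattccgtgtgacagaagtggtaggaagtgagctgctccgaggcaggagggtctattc

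Among all 32851 windows in the table, 0.861% held the first spelling, 1.12% the second and 1.26% the shortest. A match says only that these letters are in the window. The absence of a match in the windows of the other members says nothing about receptor binding elsewhere.

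Spots were grouped into areas by clustering and by marker genes that include none of the 8 members. A spot can hold several cells, and the place of the spots on the sections was not checked. The dorsal striatal area held 594, 669, 762 and 482 spots in sets 1 to 4, led by Pde10a, Rgs9, Lrrc10b and other striatal genes. Of its 482 spots in set 4, 310 came from a cluster that also had the ventral marker Pdyn among its leading genes. The ventral markers summed to 759 counts per 1000000 in the dorsal area of set 4. In sets 1 to 3 they summed to 357 to 481 there. The ventral striatal area held 104, 162, 110 and 59 spots, led by Pdyn, Wfs1, Crym, Penk and Tac1. All 14 striatal markers were detected in both areas, and their summed level was 18475 to 21629 counts per 1000000 (CPM) in the dorsal area, 11324 to 12730 CPM in the ventral area and 853 to 1187 CPM in all other spots. Of 10 dorsal markers, 9 were lower in the ventral area in every set, and Penk was higher there in 1 set. Of 10 ventral markers, 8 were higher in the ventral area than in the dorsal area in every set, and Nts and Stard5 were higher in 3 sets. The ventral markers are not particular to the striatum. Their summed level was 1613, 1708, 1181 and 2618 CPM in the ventral area of sets 1 to 4. In the area named hypothalamus it was higher in every set, at 1982, 3414, 2145 and 2751 CPM. These markers drew the areas, so their levels describe the areas and test nothing.

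A level, in CPM, is a gene's total count in an area per 1000000 counts of all genes in that area. The dorsal area held 29125256, 22938857, 30962564 and 11531406 counts in sets 1 to 4, the ventral area 4632342, 5939911, 4122757 and 1434429, and the other spots 141003962, 80784394, 130099591 and 77786640. Set 4 was thus the shallowest in each. All intervals are 95% intervals for counting error only. Probes read part of each transcript, so levels are compared within a gene and not between genes. In spots of mixed tissue, fewer cells that express a gene and less RNA per cell cannot be told apart. Celsr3 itself stood at 31.7, 46.8, 26.0 and 47.2 CPM over all spots of sets 1 to 4, and these levels were not used to assign sets.

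Foxp1, Meis2, Ebf1, Zfp503, Rarb and Rxrg were higher in the dorsal striatal area than in all spots outside both striatal areas, in all 4 sets. Rara was lower there in all 4 sets, and Rxra was near the level of the other spots. A gene was called where the ratio of levels was at least 2-fold in the same direction in every set. By this rule 6 of the 8 members were called higher, against a background of 3.05% of the 13769 genes that averaged 1 CPM or more, and Rara was called lower, against 8.70%. The members were chosen with earlier results of these data known, so the background gives a scale and tests nothing. All 8 members were among the genes tested. The other spots were not the same tissue in every set. The thalamus area held 149, 0, 2 and 298 spots of sets 1 to 4, and the septum area 26, 140, 261 and 0. Ratios of different sets thus have no common reference, and the effect of this on them was not tested. The median ratio of dorsal to other spots was 3.78 to 5.16 over the 8 members in the different sets, and 0.911 to 0.926 over all genes tested, so a gene at the median of the table read slightly below 1.

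**Figure D1:**
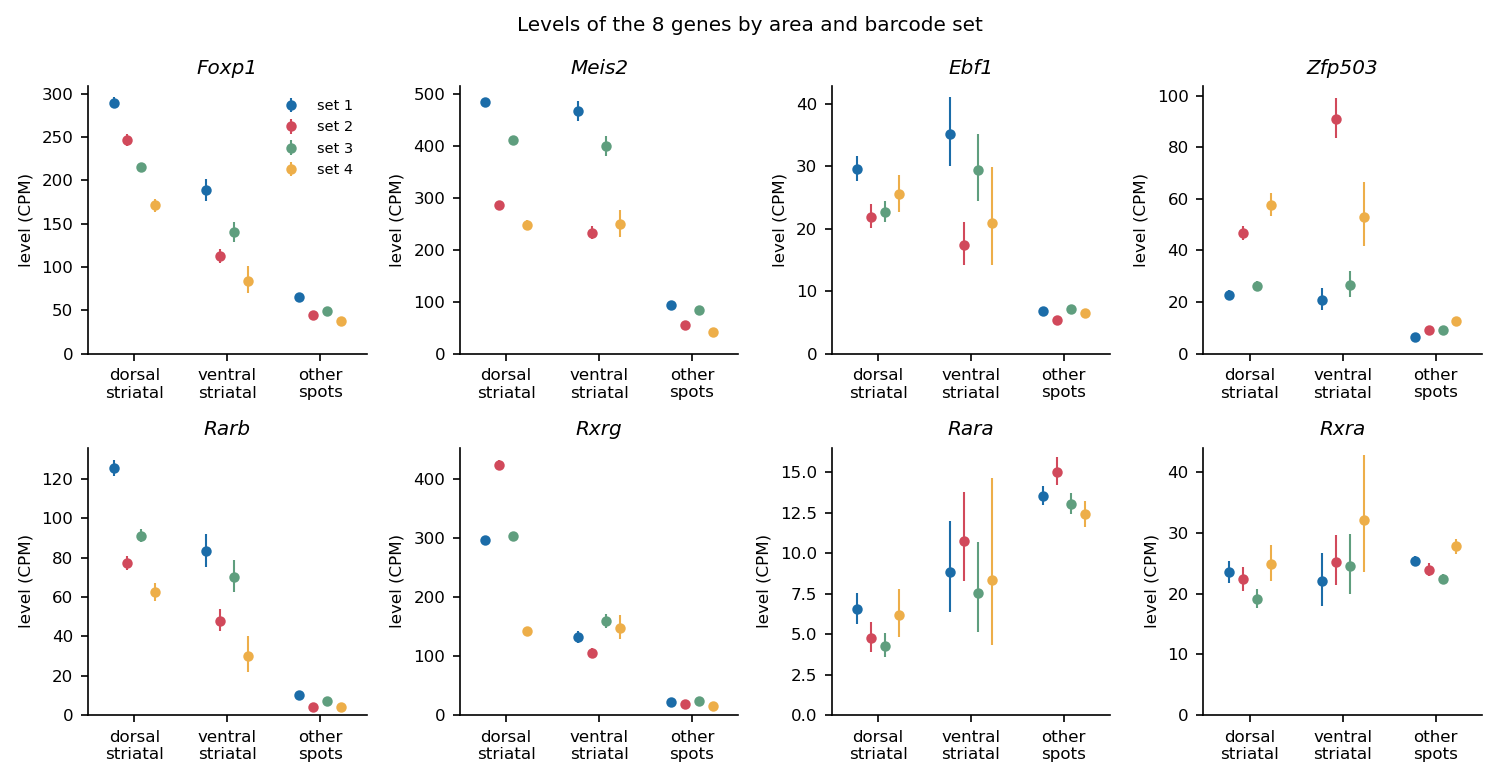
Level of each gene (vertical axis, CPM, linear and starting at 0) in dorsal striatal, ventral striatal and other spots, with a coloured point for each barcode set and bars for the 95% Poisson interval. Foxp1, Meis2, Ebf1, Zfp503, Rarb and Rxrg lie higher in both striatal areas than in the other spots, Rara lies lowest in the dorsal area, and Rxra is at 19.1 to 32.1 CPM throughout.

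Rarb encodes the beta form of the retinoic acid receptor. Its level in the dorsal area was 126, 77.2, 91.3 and 62.6 CPM in sets 1 to 4, and in the other spots 9.98, 4.32, 7.11 and 3.95 CPM. The lowest dorsal level, in set 4, was well above the highest level of the other spots, in set 1. The ratios were 12.6 (95% interval 11.8 to 13.4), 17.9 (15.9 to 20.1), 12.8 (11.9 to 13.8) and 15.9 (13.9 to 18.2). In the ventral area Rarb stood at 83.5, 48.0, 70.3 and 29.98 CPM, which was 7.60 to 11.1 times the other spots. The set 4 value rests on 43 counts and has an interval of 21.7 to 40.4 CPM.

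Rxrg encodes the gamma form of the retinoid X receptor, the partner with which an RAR binds DNA. In the dorsal area it stood at 295, 423, 302 and 142 CPM, and in the other spots at 21.9, 17.9, 23.1 and 14.7 CPM. Set 2 was the highest and set 4 the lowest of the dorsal values, and none of them overlapped the other spots. The ratios were 13.5 (12.9 to 14.0), 23.6 (22.3 to 24.9), 13.1 (12.6 to 13.7) and 9.67 (8.96 to 10.4). The ventral levels were closer together, at 131, 106, 158 and 147 CPM. They were 5.89 to 10.03 times the other spots, highest in set 4.

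Rara encodes the alpha form of the retinoic acid receptor. Its dorsal level was 6.52, 4.75, 4.26 and 6.16 CPM, against 13.5, 15.04, 13.1 and 12.4 CPM in the other spots. The dorsal and other levels did not overlap, and the ratios were 0.482, 0.316, 0.327 and 0.496. The interval for set 1 was 0.413 to 0.559 and that for set 4 was 0.384 to 0.632, so in both sets the interval reached above 0.5, the 2-fold line. The dorsal values rest on 71 to 190 counts. The call did not hold in every setting: the highest Rara ratio was 0.547 with TMM scaling, 0.548 with RLE scaling, 0.521 under the area rule as first written, which is described with the ventral area, and 0.504 with areas by marker score, and under each of these Rara was not called. In the ventral area the ratio to other spots was 0.576 to 0.716, and it lay within counting error in set 4.

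Rxra encodes the alpha form of the retinoid X receptor, which is widely expressed. It stood at 23.5, 22.3, 19.1 and 24.9 CPM in the dorsal area and at 25.4, 23.9, 22.3 and 27.7 CPM in the other spots. The ratios of 0.855 to 0.934 were all below 1, as were those of 49.1% of genes in every set and, of the other members, Rara. Only that of set 3 was beyond counting error (0.781 to 0.934). They also lie close to the median ratio of all genes. With TMM scaling they ran from 0.952 to 1.05, on both sides of 1. In the ventral area, 22.0, 25.3, 24.5 and 32.1 CPM were all within counting error of the other spots.

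Meis2 stood at 486, 286, 411 and 248 CPM in the dorsal area and at 94.0, 55.9, 83.2 and 42.0 CPM in the other spots. The groups did not overlap, and sets 1 and 3 were above sets 2 and 4 in both. Because the levels moved together, the ratios were much closer, at 5.17, 5.12, 4.94 and 5.92. The ventral levels of 468, 233, 400 and 250 CPM were 4.17 to 5.95 times the other spots.

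Foxp1 stood at 290, 247, 215 and 171 CPM in the dorsal area and at 65.7, 44.4, 48.8 and 37.1 CPM in the other spots. Its ratios were 4.41 (4.28 to 4.54), 5.56 (5.33 to 5.80), 4.41 (4.26 to 4.56) and 4.61 (4.35 to 4.88). The ventral levels of 189, 112, 140 and 84.4 CPM lay between those of the dorsal area and the other spots in every set.

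Ebf1 was a low gene, with 29.5, 21.9, 22.7 and 25.5 CPM in the dorsal area and 6.84, 5.38, 7.19 and 6.52 CPM in the other spots. Its ratios of 3.15 to 4.31 had lower interval bounds of 2.85 to 3.93. The ventral levels were 35.2, 17.3, 29.3 and 20.9 CPM, of which the last rests on 30 counts. Ebf1 is also known from pericytes, and the summed level of 9 pericyte and vessel cell markers, all detected, was 202 to 310 CPM in the dorsal area, 177 to 312 CPM in the ventral area and 168 to 301 CPM in the other spots.

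Zfp503 differed from the rest in its order over sets. It stood at 22.7, 46.7, 26.1 and 57.6 CPM in the dorsal area and at 6.57, 8.97, 9.30 and 12.7 CPM in the other spots. Sets 2 and 4 were the highest in the dorsal area, where Meis2 and Rarb were lowest. The ratios were 3.45, 5.21, 2.80 and 4.55. In the ventral area, 20.7, 91.1, 26.7 and 53.0 CPM were 3.16, 10.1, 2.87 and 4.18 times the other spots, with set 2 standing apart from the rest.

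By the 2-fold rule, the same 6 members were called higher in the ventral area, against a background of 2.11% of genes. None was called lower, against 4.38%. Which spots count as ventral matters here. The rule for areas as first written also placed in the ventral area a cluster with 182 of its 191 spots in set 2, led by Gal, Nts, Irs4 and Dlk1 with Oxt among its leading genes, and a cluster with 310 of its 317 spots in set 4, the largest striatal cluster of that set. The rule was changed after the clusters, but no member's values, had been seen. Under the first rule 4 members were called higher in the ventral area, without Foxp1 (ratio 1.23 in set 2) and Meis2 (1.85 in set 2), while 6 were still called higher in the dorsal area. The shares of all genes called under the first rule are not given here, and the 2.11% belongs to the areas as used.

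**Figure D2:**
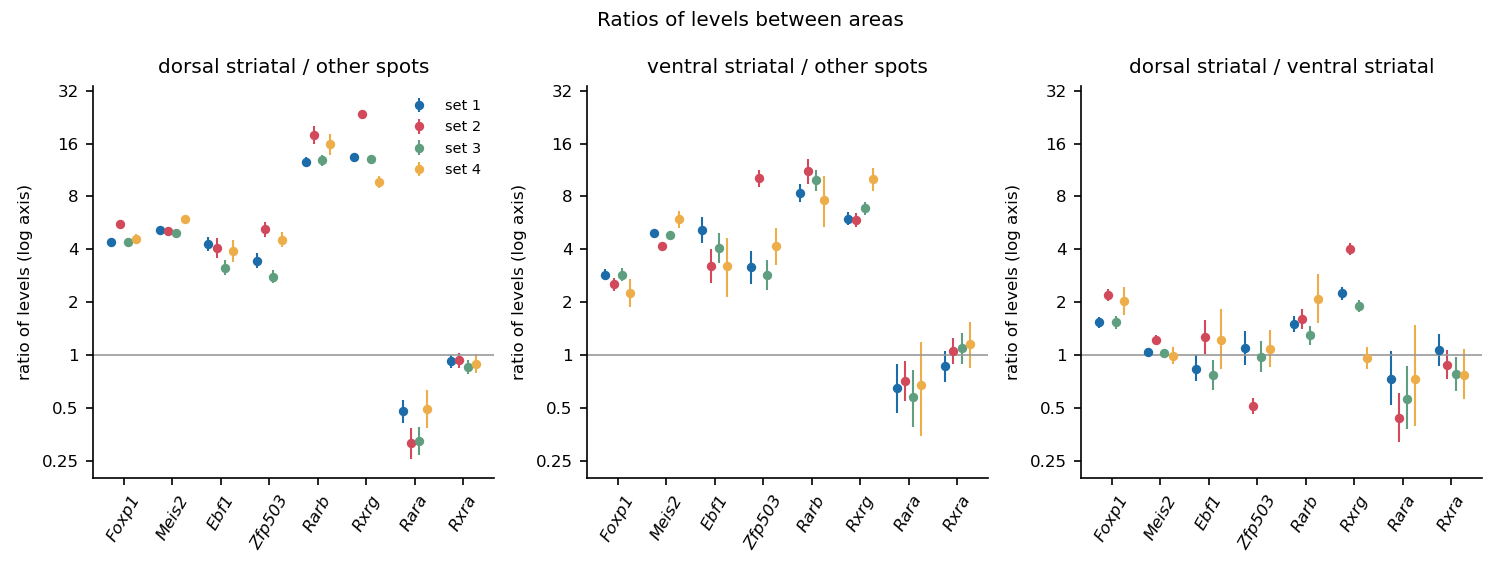
Ratio of levels between areas (vertical axes, log scale) for each gene and barcode set, with 95% intervals for counting error and a line at 1. Rarb and Rxrg have the highest ratios of dorsal to other spots, 9.67 to 23.6.

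Dorsal and ventral areas were compared within each set, with a call where the ratio was at least 1.5-fold in the same direction in every set. Foxp1 was called higher in the dorsal area (1.18% of genes), and no member was called lower (2.98%). The Foxp1 ratios were 1.54 (1.43 to 1.65), 2.19 (2.02 to 2.38), 1.54 (1.41 to 1.67) and 2.03 (1.69 to 2.46), so in sets 1 and 3 the intervals reached below the call. The call was lost under the first rule for areas, where the ratio was 0.862 in set 4. It was also lost at a clustering resolution of 1.2, with a minimum of 2000 counts per spot, and with clustering without set 1 or without set 2. The Foxp1 call thus changed with how spots were kept and areas drawn. Which members were called also changed with TMM scaling, with a lower fold and with the sets used, as given further below.

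Rarb was higher in the dorsal than the ventral area in all 4 sets, by 1.504, 1.61, 1.30 and 2.09, and was not called because of set 3. Foxp1 and Rarb were the 2 members with a ratio above 1 in every set, as 12.2% of genes had. Under the first rule the Rarb ratio was 0.767 in set 4. Rxrg was higher dorsally in sets 1 to 3, by 2.25, 4.01 and 1.91, and within counting error in set 4 (0.964, interval 0.835 to 1.12). Meis2 was within counting error in 3 sets and higher dorsally by 1.23 in set 2. Zfp503 was lower dorsally in set 2, at 0.513 (0.462 to 0.570), and within counting error in the other sets. Ebf1 was lower dorsally in sets 1 and 3, at 0.839 and 0.773, higher in set 2, at 1.26, and within counting error in set 4. Rara ratios were 0.737, 0.441, 0.567 and 0.736, of which those of sets 2 and 3 were beyond counting error. Rxra was lower dorsally in set 3 only, at 0.779 (0.630 to 0.972).

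In the dorsal area each member differed between some barcode sets by more than counting error allows. For Ebf1, Rxrg, Rara and Rxra other pairs of sets were within counting error there. Rara in the ventral area was within counting error for every pair of sets. The intervals below do not allow for the choice of the highest and lowest set. In the dorsal area the highest set was 1.69 times the lowest for Foxp1 (1.61 to 1.78), 1.95 for Meis2 (1.88 to 2.03), 2.01 for Rarb (1.85 to 2.18), 2.54 for Zfp503 (2.28 to 2.83) and 2.98 for Rxrg (2.83 to 3.15). It was 1.53 times the lowest for Rara, 1.35 for Ebf1 and 1.30 for Rxra. A spread of at least 1.5-fold was thus seen in 6 of the 8 members in the dorsal area, where 50.0% of genes reached it, and in 5 in the other spots, where 46.5% did. Spreads of this size were common across the table and are not particular to these genes.

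Part of the dorsal area comes from clusters that belong mostly to certain sets. Of the 4 dorsal clusters, the largest held mainly spots of sets 1 and 3, another was 96.7% set 2 and another 97.8% set 4. The remaining cluster, led by Rgs9 and Pde10a, held 178, 130, 318 and 156 spots of sets 1 to 4. It had 0 dorsal and 0 ventral markers at 1.5 times their level in the other striatal clusters, and such a tie counted as dorsal. With clustering without set 2, a cluster also led by Rgs9 counted as ventral. That one held 184, 382 and 80 spots of sets 1, 3 and 4. Within the remaining cluster Zfp503 stood at 20.8, 46.2, 25.2 and 42.8 CPM, so sets 2 and 4 were again the highest. Rxrg stood at 231, 316, 251 and 130 CPM there, again highest in set 2 and lowest in set 4. Rarb stood at 104, 66.3, 85.2 and 47.6 CPM and Meis2 at 432, 235, 373 and 196 CPM, in the same order as over the whole dorsal area. Foxp1 stood at 253, 185, 193 and 144 CPM, so its sets 2 and 3 changed places.

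Outside the striatum the members parted ways. The 26 clusters made 19 areas, and 58 combinations of an area and a set had at least 30 spots. Areas are named for their markers where at least 3 of a list led them, and otherwise by their leading genes. For each gene the areas are ordered by the median over sets.

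**Figure D3:**
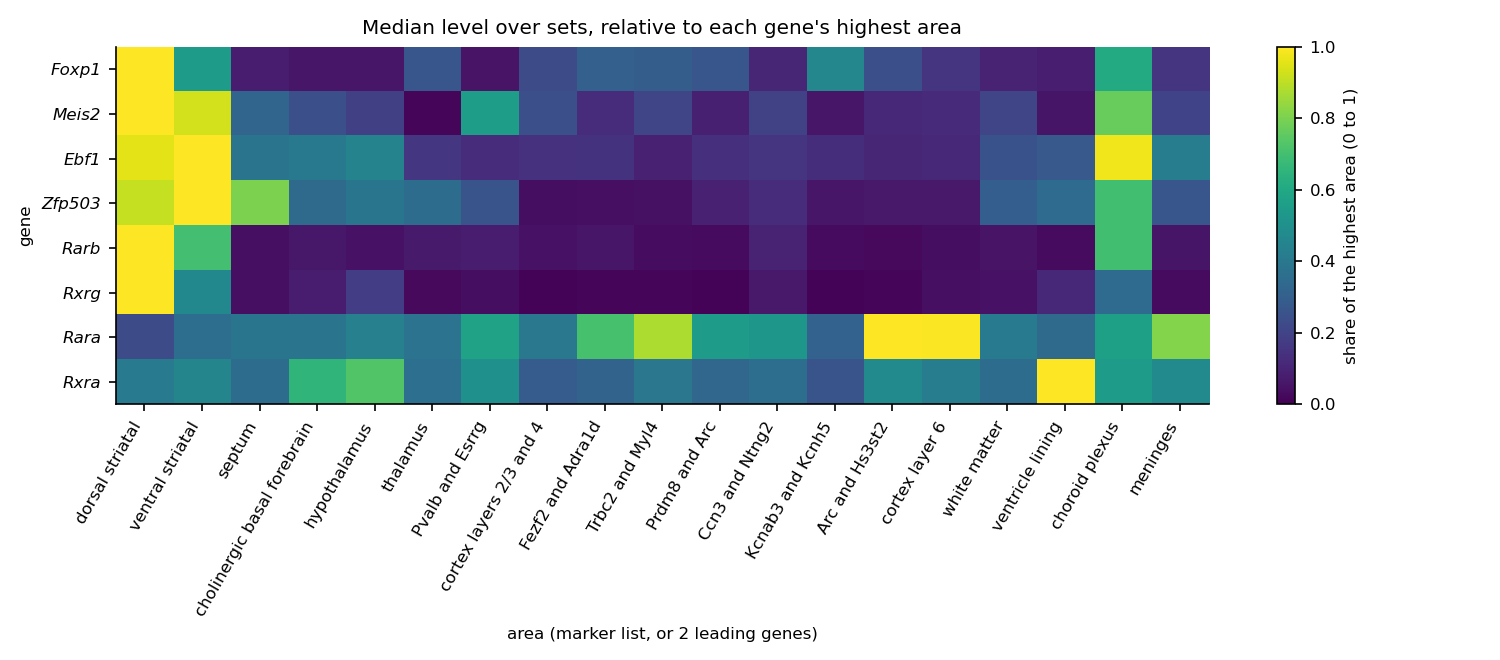
Median level over barcode sets of each gene (rows) in each of the 19 areas (columns), as a share of that gene's highest area on a linear colour scale from 0 to 1. Foxp1, Meis2, Rarb and Rxrg are brightest in the dorsal striatal column, Rara is dark there and brightest in the area led by Arc and Hs3st2 and in cortex layer 6, and Rxra is brightest in the ventricle lining.

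Rarb was high in 3 areas, the dorsal striatal area first, and low in all the others. After the dorsal area came the ventral area with 29.98 to 83.5 CPM and the choroid plexus area with 54.1 to 71.6 CPM, whose ranges overlapped each other and the dorsal one. Within each set the ventral level was below the dorsal one. The next area, led by Ccn3 and Ntng2, was at 4.47 to 9.41 CPM, and no area below the first 3 went above 9.76 CPM. By the median over sets Rxrg followed the same order, with 62.3 to 173 CPM in the choroid plexus area. That range reached above the ventral one, of 106 to 158 CPM. In set 4 the ventral level of Rxrg, 147 CPM, was above the dorsal 142 CPM, within counting error. Rxrg had a further level in the hypothalamus area, at 39.8 to 63.0 CPM, clear of the 2.11 to 3.03 CPM of the cortical area led by Kcnab3 and Kcnh5.

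Foxp1 had a second high area in the cortex. The area led by Kcnab3 and Kcnh5, with Rorb, a marker of cortical layer 4, among its leading genes, stood at 104 to 157 CPM in the 3 sets that had it. This range overlapped the ventral striatal range of 84.4 to 189 CPM. Within each of these sets, however, the cortical area was below the ventral area. It stood at 157 against 189 CPM in set 1, 104 against 112 CPM in set 2 and 107 against 140 CPM in set 3. The intervals overlapped in set 2 only. The area led by Fezf2 and Adra1d followed at 60.4 to 95.0 CPM, while cortex layer 6 was at 29.7 to 43.2 CPM, below it without overlap. The hypothalamus at 13.3 to 25.0 CPM and the cholinergic basal forebrain at 12.8 to 23.9 CPM were among the lowest and overlapped.

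Meis2 was high in the area led by Pvalb and Esrrg, at 116 and 275 CPM in the 2 sets that had it, and in the septum, at 104 and 122 CPM. The thalamus was its lowest area, at 4.28 and 4.77 CPM. Foxp1 stood at 42.9 and 80.0 CPM in the same thalamic spots and at 5.93 and 18.4 CPM in the area led by Pvalb and Esrrg, the reverse of Meis2.

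The septal level of Zfp503 went opposite ways in the 2 sets with at least 30 septal spots. It was 12.8 CPM in set 2, below the 91.1 CPM of that set's ventral area, and 51.2 CPM in set 3, above the 26.7 CPM of the ventral area there. Zfp503 was lowest in cortex layers 2/3 and 4, at 0.968 to 2.30 CPM. Ebf1 stood at 7.77 to 13.8 CPM in the hypothalamus and at 9.99 to 13.6 CPM in the meninges, which overlapped, and at 1.75 to 3.14 CPM in the cortical area led by Trbc2 and Myl4.

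The choroid plexus area, led by Ttr, Folr1 and Kl, was the second to the fourth in order for Foxp1, Meis2, Ebf1, Zfp503, Rarb and Rxrg. Its spots also read striatal RNA: all 14 striatal markers were detected, with a summed level of 6955 to 11445 CPM, against 853 to 1187 CPM over all spots outside the striatal areas. Foxp1 was at 130 to 172 CPM, Meis2 at 238 to 280 CPM and Ebf1 at 22.7 to 29.3 CPM in these spots. The part of the striatal RNA in these levels was not tested. Ratios to other spots without the choroid plexus, white matter, ventricle lining and meninges again gave 6 members called higher in the dorsal area.

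Rara and Rxra had other maps. By the median over sets Rara was lowest in the dorsal striatal area among the 19 areas. Its range there of 4.26 to 6.52 CPM overlapped that of white matter, 5.56 to 10.9 CPM, and in set 4 white matter and the ventricle lining (4.98 CPM) were below the dorsal area. It was high in cortex layer 6, at 16.1 to 32.6 CPM, and in the area led by Arc and Hs3st2, at 23.8 CPM in set 4, the single set with at least 30 such spots, where layer 6 was at 26.5 CPM. The areas led by Trbc2 and Myl4, with 19.3 to 25.1 CPM, and by Fezf2 and Adra1d, with 16.4 to 21.8 CPM, overlapped these. Cortex layers 2/3 and 4 were lower, at 8.58 to 9.76 CPM in the 3 sets with at least 30 such spots, without overlap with the areas just given. Set 4 had 1 such spot. Its area led by Prdm8 and Arc, with Lamp5 and Cux2 among the leading genes, stood at 13.0 CPM. Rxra was highest in the ventricle lining, at 48.6 and 61.0 CPM, then in the hypothalamus, at 31.8 to 42.8 CPM, and the cholinergic basal forebrain, at 33.1 to 41.0 CPM, which overlapped each other. It was lowest in the area led by Kcnab3 and Kcnh5, at 11.9 to 16.4 CPM, the area that was high for Foxp1.

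Patterns were set side by side by Pearson's r of log2(CPM + 1) over the 58 combinations of area and set. Points of the same set share a library and points of the same area share a cell make-up, so these values describe likeness and carry no p-value. Among the members, Zfp503 and Ebf1 (r = 0.82), Rarb and Rxrg (0.82), Ebf1 and Rxrg (0.82) and Ebf1 and Rarb (0.78) were most alike. Foxp1 was nearest to Rarb (0.66) and stood further from Rxrg (0.30) and Zfp503 (0.09). Rara ran against Zfp503 (-0.53), Ebf1 (-0.44) and Rxrg (-0.43), and Rara and Rxra were unrelated (-0.07).

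Among the 10140 genes that averaged 10 CPM or more, the gene most like Rarb was Pde10a (r = 0.94), followed by Tbc1d8, Itgb1bp1, Sh3rf2 and Actn2 (0.92 to 0.91). Pde10a encodes a phosphodiesterase of striatal projection neurons and was a marker of the striatal areas. Rxrg was most like Rgs9 (0.94), a regulator of G protein signalling, and the dopamine receptor gene Drd2 (0.93), both markers too, then Dach1, Stk32a and Tac1. Ebf1 was most like Klhl13 (0.87), Dach1, Pou3f4, Stk32a and Rasgrp2. Zfp503 was most like Zfp467 (0.91), Cacng4 (0.91), Klhl13, Rrp1b and Zeb1.

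Foxp1 was most like Lrrk2 (0.88), the kinase gene known from inherited Parkinson disease, then Usp28, Ppp1r9a, Itpr1 and Gabrd. Meis2 was most like Dgkb (0.83), Zswim5, Adamts3, Actn2 and Dlx5. Likeness was weaker for the broad receptors: the gene most like Rara was Efhd2 (0.69), followed by Rai14, Myl4, Sox5 and Rspo2, and that most like Rxra was Th (0.78), followed by Pcbd2, Gmds, Lpin1 and Stat5b. Tac1, Rasgrp2, Itpr1 and Myl4 were also on the marker lists used for the areas.

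The 2 remaining receptors of the families were also read. Rarg, the gamma form of the retinoic acid receptor, stood at 22.3, 35.9, 19.7 and 28.9 CPM in the dorsal area and at 9.76, 17.0, 10.3 and 13.2 CPM in the other spots. Its ratios of 2.28, 2.12, 1.92 and 2.20 were beyond counting error in all sets, and it was not called because of set 3. With TMM scaling its lowest ratio was 2.18 and with RLE scaling 2.11, and under both it was called higher. Rxrb, the beta form of the retinoid X receptor, was 1.39 to 1.45 times as high in the dorsal area as in the other spots. Probes shared between related receptors cannot be seen in the table.

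Of 35 other genes of the retinoid pathway, 30 were tested. In the dorsal area 2 were called higher, Crabp1 (5.99 to 8.70 times the other spots over the sets) and Crabp2 (2.77 to 4.88), which encode cytosolic binding proteins for retinoic acid. Called lower were 4: Cyp26b1 (0.104 to 0.232), which encodes an enzyme that breaks down retinoic acid, Aldh1a3, which encodes an enzyme that makes it, and the nuclear receptor genes Nr4a2 (0.120 to 0.370) and Pparg. Aldh1a3 rests on as few as 5 counts and Pparg on as few as 2 in the dorsal area of a set. The median ratio of the list was 0.912 to 1.03, next to 0.911 to 0.926 over all genes. Over all genes tested, 3.05% were called higher in the dorsal area and 8.70% lower.

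In the ventral area Crabp1 was called higher (7.73 to 17.7 times the other spots), and Aldh1a3, Stra6, Pparg and Nr4a2 were called lower. The shares of all genes tested called in this area were 2.11% higher and 4.38% lower. Aldh1a3, Stra6 and Pparg had a ventral count of 0 in at least 1 set, so no fold is given for them. Between the striatal areas Cyp26b1 was lower dorsally (0.0413 to 0.293 times the ventral level), and Crabp2, with as few as 2 ventral counts, and Stra6, which encodes a retinol transporter, were called higher dorsally. Here 1.18% of all genes tested were called higher dorsally and 2.98% lower.

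Of 36 other transcription factors of the striatum and forebrain, all were tested. In the dorsal area 10 were called higher, led by Bcl11b (5.81 to 9.11), a zinc finger factor of striatal projection neurons. Foxo1 (4.81 to 7.01), the Meis2 relative Meis1 (3.83 to 5.15) and the homeodomain gene Dlx6 (3.01 to 4.76) followed. Id4, Sp9, Pbx3, Dlx5, the Foxp1 relative Foxp2 (2.68 to 4.07) and Ikzf1 were the others. Called lower were 11, among them Sp8, Tbr1, Dlx1, Tshz2, Zic1, Satb1, Ebf4 (0.237 to 0.262), Dlx2 and Zfp703. Tbr1 (0.0426 to 0.105) is known from cortical projection neurons. Dlx1 (0.0955 to 0.147) and Dlx5 (2.56 to 3.41) of the same family were called in opposite directions. The median ratio of this list was 0.991 to 1.11. Over all genes tested, 3.05% were called higher in the dorsal area and 8.70% lower.

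**Figure D4:**
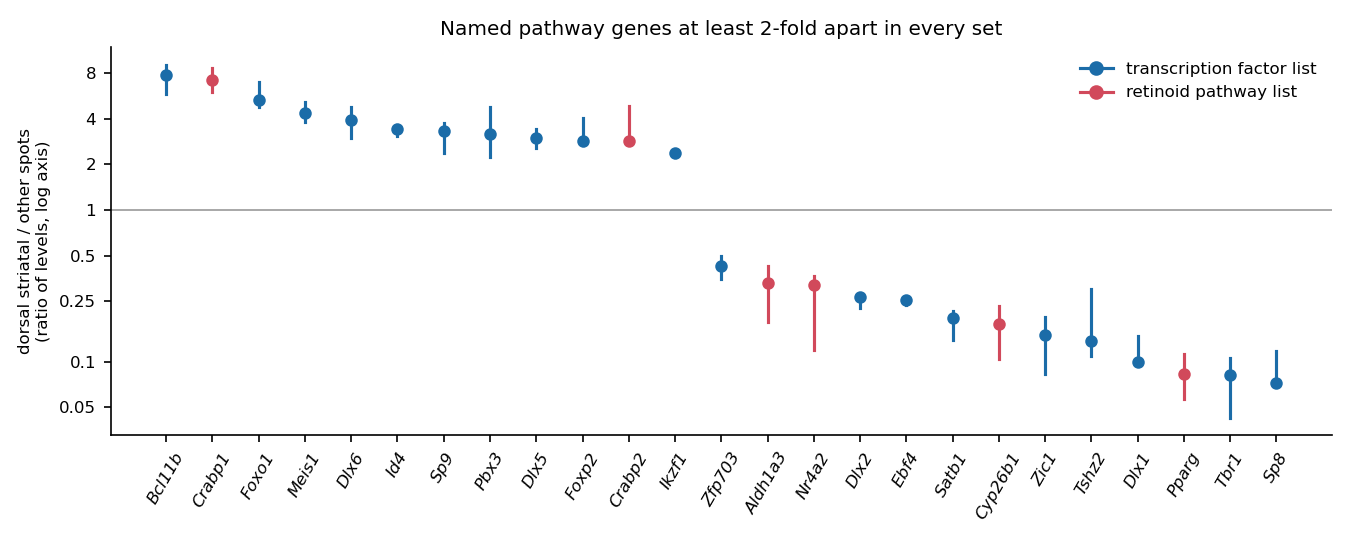
Ratio of dorsal striatal to other spots (vertical axis, log scale) for the named pathway genes called at least 2-fold apart in every set, as the median (point) and range (line) over the 4 barcode sets. Blue marks the transcription factor list, with Bcl11b highest at a median of 7.77, and red marks the retinoid list, with Crabp1 highest at 7.20.

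In the ventral area 8 of the 36 were called higher: Bcl11b (4.35 to 6.95), Dlx6, Dlx5, Six3 (2.87 to 5.37), Pbx3, Sp9, Meis1 and Isl1 (2.05 to 5.01). Called lower were 6, among them Dlx1, Ebf2, Satb1, Tbr1 and Zic1. The Ebf2 call rests on as few as 1 ventral count in a set. The shares of all genes tested called in this area were 2.11% higher and 4.38% lower. Between the areas, Foxo1 was called higher dorsally (1.58 to 2.87 times the ventral level), and Sp8, Gsx2, Tshz2 (0.316 to 0.485), Ebf4 (0.365 to 0.607) and Dlx2 were called lower. Gsx2 rests on as few as 5 dorsal and 2 ventral counts in a set, and Sp8 on as few as 8 and 4. Between the areas, 1.18% of all genes tested were called higher dorsally and 2.98% lower. Six3 and Isl1 passed the rule in the ventral and not in the dorsal area. Whether these 2 genes differ between the areas by the 1.5-fold rule was read directly, and neither was called.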

How the data were processed

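Spatial gene expression was read from 4 mouse brain sections with the Visium CytAssist assay for fixed tissue. The authors deposited a single table of counts, whole numbers per gene and spot. Space Ranger and Seurat are named per the submitters' processing notes, and their versions, the genome build and the probe set are not given in the sources used here. The ending of each spot's barcode gave 4 barcode sets, which match no label, so the planned edgeR and DESeq2 tests of genotype were not run. Of 4744 barcodes, 1613 occurred in all 4 sets. A minimum of 500 counts per spot left 12601 of 12602 spots.

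Spots were clustered (counts scaled to 10000 per spot, logged, 2000 variable genes without the members and pathway lists, centred within set, 30 principal components, 15 neighbours, Leiden resolution 0.8, seed 0; scanpy 1.11.5, leidenalg 0.10.2). Striatal clusters had at least 3 striatal or ventral markers among their 10 leading genes. Ventral ones had more ventral than dorsal markers at 1.5 times their level in the other striatal clusters. All other striatal clusters counted as dorsal, also where the numbers were equal. After the clusters were seen, and before any member's value was, this rule was changed to compare markers within the same sets and to leave out clusters led as much by markers of another area. Results under the rule as first written are given with those it changes.

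Levels have exact Poisson intervals and ratios exact conditional binomial intervals (scipy 1.17.1), with no p-values. The members and lists were chosen with earlier results of these data known. All 8 members are named, with the 5 genes most like each, the pathway genes that passed a call, and Rarg and Rxrb. Some genes of the lists are counted but not reported by name here. Other scalings (TMM, RLE) used edgeR 4.0.16. Calls and intervals were tested on simulated data drawn with counting error only. This checks the calculation and cannot test differences between spots or sets, or the drawing of areas. Promoters are RefSeq's, of GRCm38.p6.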

Additional observations from a re-analysis of the deposited data

How the results depend on the processing

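The count of members called higher in the dorsal area was 6 under all alternatives that were run. Rara kept its call as lower in the dorsal area except with TMM or RLE scaling, under the rule as first written and with areas by marker score. The count called higher in the ventral area was 6, except 4 under the rule for areas as first written, and 5 with areas by marker score and with clustering without set 3. The call between dorsal and ventral areas did not hold in this way. From 1 member, Foxp1, it went to 0 under the rule as first written, at resolution 1.2, with a minimum of 2000 counts per spot, and with clustering without set 1 or without set 2. It went to 2 with areas by marker score, where 2 sets had enough ventral spots, and with TMM scaling (Foxp1 and Rarb in both). It went to 3 with clustering without set 3 or without set 4 and with the lower fold for the call, and to 2 when calls left out set 3 or set 4. At resolution 0.4 there was no ventral area, so no value was had. The shares of all genes called under each alternative are not given here, and those given above belong to the main setting. A call over fewer sets or at a lower fold is easier for any gene to pass. These counts thus describe how the members' calls moved and set no scale for them.

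Of 960 single ratios under the alternatives, 679 stayed within counting error of the reported value, 275 moved beyond it, and 6 whose reported interval left out 1 turned direction, all 6 between dorsal and ventral areas. A further 42, within counting error of 1 as reported, also changed side of 1, of which 33 were between dorsal and ventral areas; they are counted among the 679 and 275. On the log2 scale, under the rule as first written, Foxp1 in set 4 went to -0.214 and Rarb in set 4 to -0.382, because the main striatal cluster of set 4 then counts as ventral. Ebf1 went to -0.463 in set 2 with clustering without set 1, to 0.0128 in set 3 without set 2, to 0.0913 in set 1 without set 3, and to 0.0324 in set 1 with TMM scaling; the cause was not tested. The count of pathway genes called higher in the dorsal area was 12 and ran from 9 to 17, again without matching shares of all genes. The rule as first written, the calls without a set and the narrower other spots were added after the data were seen. The edgeR and DESeq2 tests of genotype, and those without each replicate, were not run. No paired analysis was possible because the barcode sets carry no replicate number of the labels. Set 4, with 59 ventral spots, limits the ventral values of the low genes most.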

Other observations

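In the dorsal striatal area, 64.0% of the 13769 genes tested had sets 1 and 3 both above or both below sets 2 and 4. Among the 8 members this held for 3: Meis2 and Rarb were higher in sets 1 and 3, and Zfp503 was higher in sets 2 and 4. In the other spots 68.3% of genes had this split, and of the members Foxp1, Meis2, Ebf1, Rarb and Rxrg did, all higher in sets 1 and 3. The labels put these sets in no group, and nothing was tested on this split.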
